A study of Mus musculus with 8 samples.

Results

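Genes that mark B cells, T cells, natural killer (NK) cells and neutrophils were examined in the chromatin of mouse bone-marrow-derived macrophages, to see at which of them accessible regions were called, in which group, and whether at a gene end or at a distance. The 42 markers comprised 11 B, 12 T, 4 NK and 15 neutrophil genes, taken from 21887 protein-coding genes. A region was a merged stretch of overlapping peaks from the 8 peak lists, and it belonged to the protein-coding gene with the nearest end of its span within 50 kb. Of 76751 regions, 61954 were assigned to a gene and 89 belonged to a marker. At least 1 region lay at 31 of the 42 markers, and 11 markers had none.

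The study measured chromatin accessibility by ATAC-seq, in which a transposase inserts sequencing adapters into accessible DNA. It asked what LPS, a bacterial cell wall component, does to macrophage chromatin and what role Lamin-A, the product of Lmna that lines the inner nuclear membrane, has in it. The 4 groups of 2 libraries each were Lamin-A knockout (KO) macrophages given LPS for 6 h, KO macrophages left untreated, wild-type (WT) macrophages given LPS for 6 h, and WT macrophages left untreated. All cells had been grown from bone marrow for 7 days and were frozen and thawed before the assay. The labels give neither the targeted part of the gene, the strain, sex and age of the animals nor the dose of LPS. Whether 1 or several animals gave the libraries of a group is not stated either, and the p-values below measure the spread between these libraries, which may be technical.

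Macrophages, neutrophils and lymphocytes descend from the same blood stem cells, and each lineage is set by transcription factors that keep its own genes accessible while genes of the other lineages are silent. PU.1 and C/EBP factors act in macrophages and neutrophils, EBF1 and PAX5 define B cells, and GATA3, TCF7 and BCL11B define T cells. Accessible DNA at a gene end often marks a promoter, and accessible DNA at a distance often marks an enhancer, which may serve a gene other than the nearest one.

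The lists held 44504 to 59750 peaks covering 17.91 to 24.96 Mb, with 44504 to 49661 peaks in the 4 KO lists and 53942 to 59750 in the 4 WT lists. Of the regions held by either of 2 libraries, both held 78.4 to 82.3% within a group and 58.7 to 75.5% between groups. Over the marker regions alone the shares were 75.7 to 83.3% within groups and 59.2 to 74.3% between groups. The macrophage label was checked on 30 macrophage genes. Of these, 28 (93.3%) had an assigned region with its summit within 1 kb of a gene end. In all 8 libraries 26 (86.7%) had one, among them Csf1r, Spi1 and Cebpa. Maf and Ccr2 had none.

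The start of the gene was known for 35 of the 42 markers, from RefSeq promoter windows (GRCm38.p6, the mm10 build) that run from 250 bases before a transcription start to 50 after it. Regions overlapped the window of 6 of these 35 genes (17.1%), and each of the 6 was called in all 8 libraries. The same overlap was found for 18 of 19 macrophage genes in the table (94.7%) and for 51.9% of all protein-coding genes in it. The 6 were Mmp8, S100a8 and Camp, which encode a collagenase, a subunit of calprotectin and the antimicrobial peptide cathelicidin of neutrophil granules, Il7r, the receptor chain for interleukin-7 in lymphocytes, Blnk, an adaptor of the B cell receptor, and Klrb1c, the NK1.1 antigen of NK cells. Their 250 bases upstream of the start are shown because they are the marker promoters that lay in called chromatin. They come from RefSeq and are written 5′ to 3′ on the gene's strand, at chr9:7558179-7558428 (plus strand) for Mmp8, chr3:90668821-90669070 (plus strand) for S100a8, chr9:109849457-109849706 (minus strand) for Camp, chr15:9529877-9530126 (minus strand) for Il7r, chr19:40994222-40994471 (minus strand) for Blnk and chr6:128788642-128788891 (minus strand) for Klrb1c. Capitals mark matches, on either strand, to the searched letters GAGGAAGT (PU.1), TGANTCA (AP-1), TTGCNNAA (C/EBP), GGANTTTCC (NF-kB) and TGTGGTT (RUNX), where N is any base.
Mmp8: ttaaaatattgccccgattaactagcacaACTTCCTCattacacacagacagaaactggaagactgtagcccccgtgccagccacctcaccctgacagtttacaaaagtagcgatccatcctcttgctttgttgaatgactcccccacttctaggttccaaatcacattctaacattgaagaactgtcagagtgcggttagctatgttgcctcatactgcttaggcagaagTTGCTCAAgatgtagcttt
S100a8: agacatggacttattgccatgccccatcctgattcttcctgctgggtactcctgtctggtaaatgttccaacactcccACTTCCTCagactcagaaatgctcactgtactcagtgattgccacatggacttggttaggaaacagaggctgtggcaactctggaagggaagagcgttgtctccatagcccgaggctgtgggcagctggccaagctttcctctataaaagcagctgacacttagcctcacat
Camp: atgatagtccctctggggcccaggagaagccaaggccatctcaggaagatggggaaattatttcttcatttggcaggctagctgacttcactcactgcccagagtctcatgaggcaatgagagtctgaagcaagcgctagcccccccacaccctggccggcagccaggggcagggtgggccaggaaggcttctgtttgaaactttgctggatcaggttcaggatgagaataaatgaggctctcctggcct
Il7r: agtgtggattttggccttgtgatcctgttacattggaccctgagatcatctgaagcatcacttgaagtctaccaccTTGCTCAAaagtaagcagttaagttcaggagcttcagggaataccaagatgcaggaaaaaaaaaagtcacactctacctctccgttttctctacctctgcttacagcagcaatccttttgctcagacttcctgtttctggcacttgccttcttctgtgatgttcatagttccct
Blnk: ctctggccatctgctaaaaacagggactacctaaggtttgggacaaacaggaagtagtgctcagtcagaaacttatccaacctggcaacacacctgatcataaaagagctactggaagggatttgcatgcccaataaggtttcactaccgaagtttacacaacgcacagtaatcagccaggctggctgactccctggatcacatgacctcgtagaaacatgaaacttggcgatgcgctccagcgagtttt
Klrb1c: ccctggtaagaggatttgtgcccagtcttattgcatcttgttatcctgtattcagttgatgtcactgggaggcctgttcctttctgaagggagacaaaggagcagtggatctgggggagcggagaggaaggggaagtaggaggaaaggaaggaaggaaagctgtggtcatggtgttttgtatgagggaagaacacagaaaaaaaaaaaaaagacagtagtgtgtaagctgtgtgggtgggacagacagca
Counted to the first base of the match from the start site, Mmp8 held a PU.1 match at -221 and a C/EBP match at -19, S100a8 a PU.1 match at -172, and Il7r a C/EBP match at -174. No match to the 5 motifs was found in these bases of Camp, Blnk and Klrb1c, and the matches did not overlap one another. Among all 32851 upstream stretches of 250 bases in the table, 2.44% held the PU.1 letters, 9.56% the C/EBP letters, 6.75% the AP-1 letters, 1.07% the NF-kB letters and 4.4% the RUNX letters. The matches describe letters, not bound sites.

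A region assigned to the gene, with its summit within 1 kb of either end, was called at 13 of the 42 markers (31%). The same held for 28 of 30 macrophage genes (93.3%) and 49.3% of all protein-coding genes. By lineage, the count of markers was 3 of 11 B markers (Blnk, Blk and Ebf1), 3 of 12 T markers (Cd3d, Cd28 and Il7r), 1 of 4 NK markers (Klrb1c) and 6 of 15 neutrophil markers (S100a8, Camp, Cebpe, Prtn3, Mmp8 and Mmp9). In all 8 libraries such a region was called at 9 markers, namely Blnk, Cd3d, Cd28, Il7r, Klrb1c, S100a8, Camp, Prtn3 and Mmp8. Regions assigned to a neighbouring gene were not counted. A region 548 bp from an end of Cd4 was called in all 8 libraries but assigned to Gpr162, whose end was 50 bp away. In bulk chromatin a region accessible in a few cells of another lineage and one weakly accessible in all macrophages cannot be told apart.

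**Figure D1:**
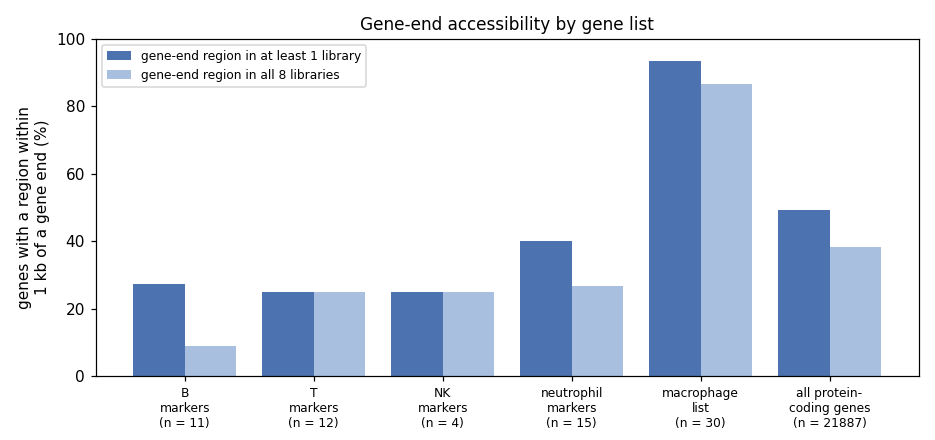
Percentage of genes with an assigned region whose summit lay within 1 kb of a gene end (y axis), by list (x axis). Under each list, n is the number of genes. Dark bars give regions called in at least 1 library and light bars those called in all 8. The 4 marker lists stand at 25 to 40% in at least 1 library, below the macrophage list at 93.3% and all protein-coding genes at 49.3%.

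Of the 89 marker regions, 17 (19.1%) were at a gene end and 72 (80.9%) were distal, with 28 of the distal ones inside the marker gene and 44 outside it. Over all assigned regions 21.6% were at a gene end. The strength of a region is its percentile rank by -log10 p in each list that called it, averaged over those lists. This mean percentile had a median of 30 for the marker regions, 44.4 for regions of the macrophage genes and 33.8 for all assigned regions. In all 8 libraries 34 marker regions (38.2%) were called, against 42.5% of all assigned regions, and 16 (18%) were called in 1 library only, against 14.1% of all assigned regions. Those 2 shares were near the background.

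**Figure D2:**
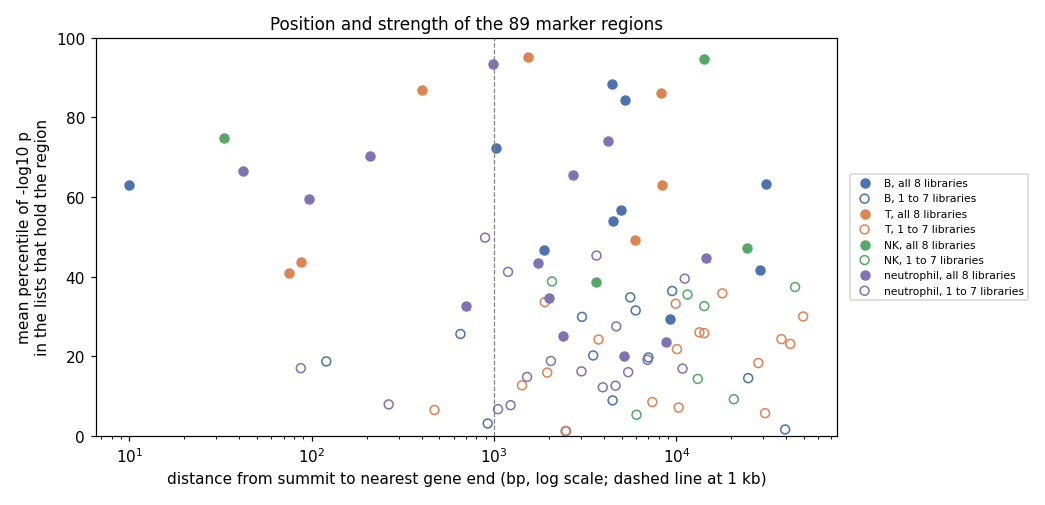
Each point is 1 of the 89 marker regions, placed by the distance of its summit from the nearest gene end (x axis, bp, log scale) and its mean percentile of -log10 p (y axis). Filled points were called in all 8 libraries and open ones in 1 to 7, colours give the lineage, and the strongest regions lie on both sides of the dashed line at 1 kb.

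**Figure D3:**
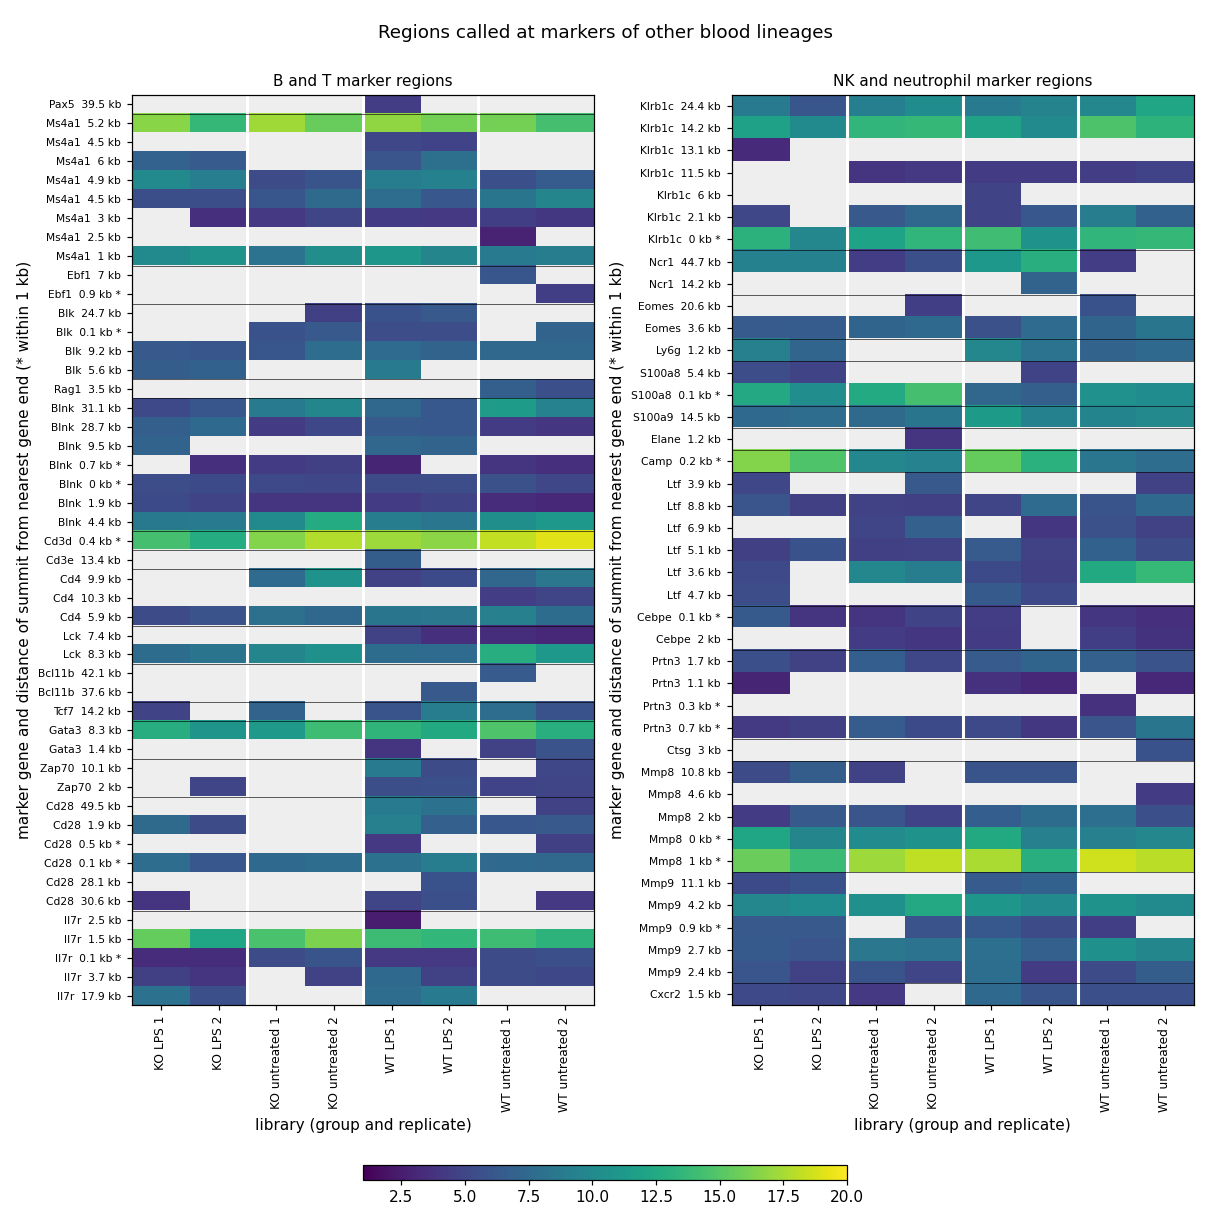
Rows are the 89 marker regions, named by gene and distance of the summit from the nearest gene end (* within 1 kb), and columns are the 8 libraries, ordered as KO LPS, KO untreated, WT LPS and WT untreated. Colour gives the fold enrichment in the authors' lists and grey means not called, with 34 regions coloured in every column.

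The B markers held 23 regions on 6 of 11 genes, and 10 of them were called in all 8 libraries. Blnk had 7 regions. The one at its start, with the summit 10 bp from it, had fold enrichments over local background, as given by the authors' peak caller, of 5.51 and 5.26 in KO LPS, 5.18 and 5.03 in KO untreated, 5.41 and 5.48 in WT LPS and 5.69 and 5.04 in WT untreated libraries. Such a ratio is each peak's own within its list and describes the peak, so no change between libraries is read from it. A stronger Blnk region lay 4.4 kb upstream of the start, where the fold enrichments were 8.71 and 8.91 in KO LPS, 10.06 and 12.67 in KO untreated, 9.04 and 8.49 in WT LPS and 10.47 and 11.15 in WT untreated libraries, and its mean percentile was 88.4. All 8 lists therefore held both the start and an upstream region of this adaptor gene. The gene beyond that region was Dntt, with its end 30.6 kb away.

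Ms4a1, which encodes the B cell surface protein CD20, had 8 regions and none within 1 kb of an end. The nearest, 1020 bp outside the high-coordinate end, was called in all 8 libraries with a mean percentile of 72.3. Its strongest region lay 5.2 kb outside the low-coordinate end, toward Ms4a12, whose end was 12 kb away. Fold enrichments there were 16.63 and 13.64 in KO LPS, 17.28 and 15.58 in KO untreated, 16.82 and 16.04 in WT LPS and 16 and 14.42 in WT untreated libraries. Every list held it, at percentiles from 79.8 to 87.6. The Ms4a1 regions sit in a cluster of related Ms4a genes, and which of them a region serves was not tested.

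Blk, a Src family kinase of B cells, had a region 9.2 kb inside the gene in all 8 libraries with a mean percentile of 29.4. Its gene-end region was called in 5 libraries, both KO untreated, both WT LPS and 1 WT untreated, with a mean percentile of 18.7. Ebf1, the factor that commits cells to the B lineage, had regions 922 bp and 7 kb from its low-coordinate end, each in 1 WT untreated library. Pax5, which maintains B cell identity, had 1 region 39.5 kb inside the gene in 1 WT LPS library, at percentile 1.6. Rag1, the recombinase of antigen receptor genes, had 1 region 3.5 kb upstream of its start in both WT untreated libraries. Ebf1, Pax5 and Rag1 had no region in more than 2 libraries.

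The T markers held 25 regions on 10 of 12 genes, 7 of them called in all 8 libraries. Cd3d encodes a chain of the T cell receptor complex. Its single region lay 403 bp inside the high-coordinate end, which is the far end of the gene, 4863 bp from the start, and no region overlapped the start. Fold enrichments there were 14.36 and 12.74 in KO LPS, 16.47 and 17.79 in KO untreated, 17.18 and 16.72 in WT LPS and 18.26 and 19.11 in WT untreated libraries. The region stood at a mean percentile of 87, among the stronger marker regions, in every list. Cd3e, its neighbour, had a region 13.4 kb away in 1 WT LPS library, and Cd3g had none.

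Il7r had 5 regions, and the one 1.5 kb inside the gene had the highest mean percentile of all marker regions, 95.2. Its fold enrichments were 15.54 and 12.22 in KO LPS, 14.52 and 16.27 in KO untreated, 14.02 and 13.57 in WT LPS and 14.09 and 13.28 in WT untreated libraries. The region at the start, shown above, was weaker, with fold enrichments of 3.38 and 3.47 in KO LPS, 5.43 and 5.94 in KO untreated, 4.13 and 4.12 in WT LPS and 5.33 and 5.62 in WT untreated libraries. Both were called in every library. A further region 17.9 kb outside the gene, with Spef2 as the next gene, was called in all 4 LPS libraries, with fold enrichments of 8.11 and 5.66 in KO and 7.8 and 8.88 in WT, and in no untreated library.

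Gata3, the T cell and type 2 helper factor, had a region inside the gene in all 8 libraries, 8.3 kb from the span's high-coordinate end and 1089 bp from the start in the promoter table. Fold enrichments were 12.87 and 10.87 in KO LPS, 11.19 and 14.09 in KO untreated, 13.46 and 12.53 in WT LPS and 14.75 and 12.91 in WT untreated libraries, and the mean percentile was 86.2. Lck, the kinase that starts T cell receptor signalling, had a region 1727 bp from one of its starts in all 8 libraries, at a mean percentile of 63. Cd28, the costimulatory receptor, had a region 75 bp outside its low-coordinate end in all 8 libraries, at a mean percentile of 41. Cd4, the coreceptor of helper T cells, had a region 5.9 kb outside the gene in all 8, at a mean percentile of 49.2, with Lag3 as the next gene. Another region, 548 bp outside the low-coordinate end of Cd4, was called in all 8 but assigned to Gpr162. Zap70, a T cell receptor kinase, had 2 regions in 3 and 5 libraries, and Tcf7 had 1 in 6 libraries. Bcl11b, a factor of T cell commitment, had 2 regions in 1 WT library each, and Cd8a, the coreceptor of cytotoxic T cells, had none.

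The NK markers held 11 regions on 3 of 4 genes, 7 of them at Klrb1c. The region at the Klrb1c start, with the summit 33 bp upstream, had fold enrichments of 13.19 and 9.79 in KO LPS, 12.04 and 13.52 in KO untreated, 14.17 and 10.75 in WT LPS and 13.53 and 13.69 in WT untreated libraries. All 8 lists held it, at percentiles from 61.3 to 82.5. A stronger region lay 14.2 kb beyond the other end of the gene, at a mean percentile of 94.7, with Klrb1 the next gene at 40 kb. Eomes, a T-box factor of NK cells, had a region 3.6 kb beyond its high-coordinate end in all 8 libraries at a mean percentile of 38.7. Ncr1, the NKp46 receptor, had a region 44.7 kb away in 7 libraries, where the next gene was Lilra5 at 49.3 kb. Nkg7, a cytotoxic granule protein, had none.

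The neutrophil markers held 30 regions on 12 of 15 genes, 13 of them called in all 8 libraries. At the Camp start the fold enrichments were 16.49 and 14.75 in KO LPS, 9.82 and 9.4 in KO untreated, 15.49 and 13.12 in WT LPS and 8.48 and 7.78 in WT untreated libraries. The percentiles within each list were 93.9 and 93 in KO LPS, 59.5 and 54.9 in KO untreated, 91.3 and 87.1 in WT LPS and 46 and 37.8 in WT untreated libraries. The 4 LPS values lay above the 4 untreated ones in both genotypes, but values ranked in lists of different length carry no test of change. This order was not particular to Camp. Percentiles showed it also at the Blnk region 28.7 kb inside the gene and the Ms4a1 region 4.9 kb inside it, and the reverse at the Il7r start. Ngp, a neutrophil granule protein gene near Camp, had no region, and the nearest one, 8.1 kb from it, was assigned to Ptpn23.

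S100a8 had a region with its summit 97 bp upstream of the start in all 8 libraries. Fold enrichments were 12.44 and 10.3 in KO LPS, 12.63 and 14.38 in KO untreated, 7.24 and 6.74 in WT LPS and 10.61 and 10.21 in WT untreated libraries. At each treatment the KO ratios were the larger numbers. Each ratio describes its own peak against local background, so no change between genotypes is read from them and none was tested. S100a9, which encodes the partner subunit of calprotectin, had no gene-end region and 1 region 14.5 kb upstream in all 8 libraries, at a mean percentile of 44.8. S100a8 and S100a9 lie 2.16 and 2.18 Mb from Lmna on chromosome 3, and the part of this linkage in their values was not tested.

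Mmp8 had 5 regions. The one at its start had fold enrichments of 12.27 and 9.62 in KO LPS, 10.13 and 10.74 in KO untreated, 12.55 and 9.3 in WT LPS and 9.27 and 9.8 in WT untreated libraries. A region 985 bp inside the far end, with Mmp27 the next gene at 3.9 kb, was stronger, at 15.65 and 13.92 in KO LPS, 17.2 and 18.19 in KO untreated, 17.61 and 13 in WT LPS and 18.64 and 18.07 in WT untreated libraries. Both were held by every list, and the second had a mean percentile of 93.4. Mmp9, a gelatinase that macrophages also make, had 5 regions, 3 of them called in all 8 libraries, and its gene-end region, 892 bp inside the low-coordinate end, was called in 6. The strongest Mmp9 region was 4.2 kb outside the gene, at a mean percentile of 74.2.

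Of the granule protease genes, Prtn3, which encodes proteinase 3, had 2 regions in all 8 libraries. One lay 1745 bp upstream of the start, at a mean percentile of 43.4, and the other 705 bp beyond the far end, at a mean percentile of 32.7, with Elane, neutrophil elastase, the next gene at 2.4 kb. No region overlapped the starts of Prtn3 and Elane, and Elane had 1 region in 1 KO untreated library. Mpo, myeloperoxidase, had none, and Ctsg, cathepsin G, had 1 in 1 WT untreated library at percentile 16.2. Cebpe, the factor of late granule formation, had a gene-end region in 7 libraries at a mean percentile of 17. Ltf, lactoferrin, had 6 regions, and the strongest, 3.6 kb outside the gene with Ccrl2 the next gene at 8.4 kb, was called in 7 libraries at a mean percentile of 45.3. Of the other Ltf regions, 2 were called in all 8 libraries, at mean percentiles of 23.6 and 20. Ly6g, the surface antigen that defines mouse neutrophils, had 1 region 1192 bp upstream of the start in 6 libraries, all but the KO untreated ones. Cxcr2, a chemokine receptor, had 1 region in 7 libraries at a mean percentile of 14.8.

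The 11 markers with no region were Cd79a, Cd79b, Vpreb1, Igll1 and Cr2 among the B genes, Cd3g and Cd8a among the T genes, Nkg7, and Mpo, Ngp and Retnlg among the neutrophil genes. Cd79a and Cd79b encode the signalling chains of the B cell receptor, and Vpreb1 and Igll1 the surrogate light chain of its precursor. A region can lie near a marker and still belong to another gene: the nearest to Cd79a was 1.1 kb away and assigned to Arhgef1, and the nearest to Vpreb1 was 1.5 kb away and assigned to Top3b. The start windows of Cd3d, Cd3e, Cd3g, Cd8a, Cd79a, Pax5, Ebf1, Ly6g, Elane and Mpo overlapped no region in any library.

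After LPS, 2 to 8 marker regions were gained or lost in a genotype, at shares near those of all regions except for the regions lost in WT. With LPS, a gained region was one that 2 of 2 LPS libraries and 0 of 2 untreated libraries called, a lost region was the opposite, and KO was set against WT in the same way. In KO macrophages 7 of 89 marker regions were gained with LPS (7.87%, against 7.3% of all assigned regions), at Ms4a1, Blk, Cd28, Il7r, Ly6g, S100a8 and Mmp9. In the same cells 5 were lost (5.62%, against 5.38%), at Blk, Cd4, Klrb1c, Ltf and Cebpe. In WT macrophages 8 were gained (8.99%, against 9.27%), 2 at Ms4a1 and 1 each at Blk, Blnk, Il7r, Ltf, Mmp8 and Mmp9, and 2 were lost (2.25%, against 5.82%), at Rag1 and Cd4.

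Called in all 4 LPS libraries and no untreated one were 3 marker regions (3.37%, against 4.33% of all assigned regions), namely the Il7r region 17.9 kb outside the gene, the Ms4a1 region 6 kb inside it and the Mmp9 region 11.1 kb outside it. The Ms4a1 region had fold enrichments of 6.97 and 6.42 in KO LPS and 6.04 and 8.05 in WT LPS libraries. The Mmp9 region had 5.25 and 5.79 in KO LPS and 6.46 and 6.87 in WT LPS libraries. In equally long lists the Ms4a1 region no longer met the rule in WT, and with peaks of -log10 p of at least 20 the Il7r region no longer did in KO. Each of the 3 lay away from the gene's ends, and no marker region was called in all 4 untreated libraries and no LPS one (1.69% of all assigned regions). A gene-end region of a marker was gained with LPS in neither genotype, and that of Blk was lost in KO.

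The number of marker regions called was 56 and 50 in KO LPS, 48 and 51 in KO untreated, 71 and 66 in WT LPS and 60 and 63 in WT untreated libraries. It averaged 60.75 ± 9.5 with LPS and 55.5 ± 7.14 without (SD, n = 4 each), and the two-sided exact permutation test within genotype gave a difference of 5.25, p = 0.111, Benjamini-Hochberg adjusted 0.244 over 22 tests. As a share of all assigned regions a library held, markers made up 0.143 ± 0.00498% with LPS and 0.135 ± 0.00337% without (SD, n = 4 each), a difference of 0.00794 percentage points with exact permutation p = 0.0556, Benjamini-Hochberg adjusted 0.153. That p is the smallest the 36 arrangements allow, so no such test could pass 0.05. The LPS difference in KO minus that in WT was -3.5 regions (exact permutation p = 0.611). That test permuted treatment labels within genotype, so its null was no LPS effect in either genotype. Whether the LPS effect was equal in KO and WT was not tested.

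**Figure D4:**
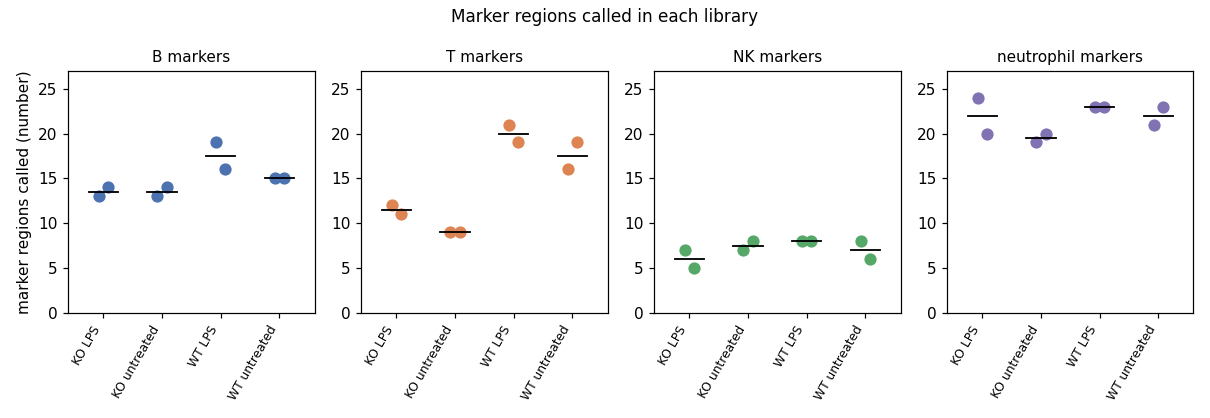
Number of marker regions called (y axis) in each of the 2 libraries (points) of the 4 groups (x axis), with the group mean (line), in 1 panel for each lineage. T marker regions numbered 9 to 12 in the KO libraries and 16 to 21 in the WT libraries, and the other 3 panels show smaller gaps.

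Between genotypes, 7 marker regions untreated and 8 after LPS were called in WT and not in KO libraries and 0 the other way, which is near the share of all regions. Untreated, 0 of 89 were gained in KO (0.654% of all assigned regions were) and 7 were lost (7.87%, against 6.2%), at Rag1, Cd4, Lck, Gata3, Zap70, Cd28 and Ly6g. After LPS, 0 were gained (0.61% of all) and 8 were lost (8.99%, against 6.77%), 2 at Blk and 1 each at Ms4a1, Cd4, Lck, Zap70, Cd28 and Klrb1c. The Lck region 7.4 kb inside the gene was the 1 marker region (1.12%, against 0.834%) called in all 4 WT and no KO library, with fold enrichments of 4.72 and 3.53 in WT LPS and 3.45 and 3.12 in WT untreated libraries. Its percentiles in the WT untreated lists were 1.1 and 0.3, and the call ended at both treatments in equally long lists and with peaks of -log10 p of at least 20. The opposite pattern, all 4 KO libraries without any WT library, was found for 0 marker regions and 0.0517% of all. T genes, which held 25 of the 89 marker regions, gave 5 of the 7 untreated and 4 of the 8 after LPS. These were 5 of 25 T marker regions untreated, against 6.2% of all assigned regions, and 4 of 25 after LPS, against 6.77%. Of 23 B marker regions 1 was lost untreated and 3 after LPS, of 11 NK ones 0 and 1, and of 30 neutrophil ones 1 and 0. T marker regions were also weaker and less constant than all assigned regions. Their median mean percentile was 25.8 against 33.8, and 28% were called in all 8 libraries against 42.5%. The part of this in their losses was not tested. In equally long lists 2 of the losses over all markers remained at each treatment, at Cd28 and Ly6g untreated and at Cd28 and Klrb1c after LPS. The LPS and genotype comparisons share libraries, so their counts are not independent.

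KO libraries held 51.25 ± 3.4 marker regions and WT libraries 65 ± 4.69 (SD, n = 4 each), a difference of -13.75 with exact permutation p = 0.0556 within treatment, Benjamini-Hochberg adjusted 0.153. The KO lists were also shorter, and the marker share of assigned regions was 0.1356 ± 0.00398% in KO and 0.1424 ± 0.00562% in WT (exact permutation p = 0.0556, n = 4 each). With every list shortened to its 44504 strongest peaks, the marker regions numbered 50 and 50 in KO LPS, 48 and 49 in KO untreated, 49 and 52 in WT LPS and 49 and 44 in WT untreated libraries. The difference then turned to 0.75 regions (exact permutation p = 0.778), and 2 were gained and 2 lost in KO at each treatment under the same rule.

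The lineages did not all follow the total. T marker regions numbered 12 and 11 in KO LPS, 9 and 9 in KO untreated, 21 and 19 in WT LPS and 16 and 19 in WT untreated libraries. Every KO library held fewer than every WT library, by 8.5 on average at both treatments, with 10.25 ± 1.5 in KO and 18.75 ± 2.06 in WT (SD, n = 4 each, exact permutation p = 0.0556, the smallest possible, Benjamini-Hochberg adjusted 0.153). In equally long lists the counts were 10 and 11 in KO LPS, 9 and 9 in KO untreated, 14 and 14 in WT LPS and 12 and 11 in WT untreated libraries, so KO LPS and WT untreated libraries met at 11 while within each treatment the genotypes stayed apart. The difference was then -3 regions (exact permutation p = 0.0556). The counts of B marker regions did not overlap between genotypes either, as given below. The lineage tests were added after the counts had been seen.

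The T regions called in both WT and neither KO library had a median mean percentile of 12.7 untreated (5 regions) and 25.9 after LPS (4 regions), where all regions lost in KO had 18.8 untreated and 21.1 after LPS. Untreated, they were the Lck region 7.4 kb inside the gene (mean percentile 8.5) and regions at Cd4 (7.1), Gata3 (12.7), Zap70 (15.9) and Cd28 (33.6). After LPS, they were the same Lck region and other regions at Cd4 (33.2), Zap70 (21.8) and Cd28 (30). In equally long lists, only the Cd28 region of each treatment met the rule, and those at Lck, Cd4, Gata3 and Zap70 did not. The T regions of high percentile at Cd3d, Il7r, Gata3 and Lck were called in every KO and every WT library.

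Regions of 9 other T genes, among them Cd2 and Cd5, numbered 17 and 18 in KO LPS, 22 and 20 in KO untreated, 22 and 20 in WT LPS and 26 and 26 in WT untreated libraries. They averaged 19.25 ± 2.22 in KO and 23.5 ± 3 in WT (SD, n = 4 each), with ranges that overlapped, and all assigned regions averaged 37770 in KO and 45610 in WT. In equally long lists these T genes had 15 to 22 regions in KO and 16 to 22 in WT libraries, ranges that overlapped nearly throughout. Regions of the macrophage genes numbered 171 to 180 in KO and 193 to 203 in WT libraries. The macrophage gene ranges of KO and WT did not overlap, and whether the T markers differed more than either list was not tested. B marker regions numbered 13 to 14 in KO and 15 to 19 in WT libraries, so these ranges did not overlap either. They averaged 13.5 ± 0.577 in KO and 16.25 ± 1.89 in WT (SD, n = 4 each). The difference was -2.75 (exact permutation p = 0.0556, Benjamini-Hochberg adjusted 0.153). As a share of assigned regions B markers hardly differed (exact permutation p = 0.944), and in equally long lists their counts overlapped, at 13 to 14 in KO and 12 to 14 in WT. NK marker regions averaged 6.75 ± 1.26 in KO and 7.5 ± 1 in WT libraries (SD, n = 4 each). Neutrophil marker regions averaged 20.75 ± 2.22 in KO and 22.5 ± 1 in WT libraries, but made up a share of 0.05486 ± 0.00379% of assigned regions in KO and 0.04935 ± 0.00192% in WT (SD, n = 4 each, exact permutation p = 0.0556, Benjamini-Hochberg adjusted 0.153). In equally long lists they numbered 19 to 20 in KO and 15 to 17 in WT libraries. The gene-end regions changed little in number, with 12 to 14 called in KO and 12 to 15 in WT libraries.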

How the data were processed

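Peak lists from 8 ATAC-seq libraries were used, called for each library separately with replicates not pooled, per the file headers and peak names. Per the submitters' processing notes, reads were handled with BWA 0.7.12 and MACS2 on mm10, and the filter behind the lists is not given in the sources used here. For each peak the authors deposited a score, a fold enrichment (a ratio to local background), a −log10 p and a −log10 q, and a position with its summit. Read counts and totals were not used here, so depth is known only as peak number. LPS libraries were grouped by title and treatment field, since their source names also carry the word for untreated.

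Peaks overlapping by 1 bp were merged, and a region was assigned to the nearest end of a protein-coding gene span (RefSeq, GRCm38.p6) within 50 kb. The members and lists were chosen with earlier results of these data known. Markers were described singly if they had a gene-end region, a region in all 8 libraries, or a gained or lost region, and otherwise by name or count. A genome sequence was not used here, so the planned sequences around summits were replaced by RefSeq promoter windows. Calls per library went into two-sided exact permutation tests, stratified by the other factor (36 arrangements, Benjamini-Hochberg over 22 tests, 16 of them added after the values were seen). Same-numbered libraries of different groups did not deviate together (correlations -0.007 to 0.007), and numbers were not taken as pairs in the main tests. With 2 libraries a group this check cannot exclude that same-numbered libraries share an animal or a preparation. A test with the numbers as pairs is given below. Of a further list of lineage genes, 9 T genes are reported, for counts only, and the rest is not reported here. Merging, assignment and calling were tested on simulated data. Python 3.11.15, numpy 2.4.6 and pandas 2.3.3 were used.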

Additional observations from a re-analysis of the deposited data

How the results depend on the processing

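With equally long lists of 44504 peaks, the KO minus WT difference in marker regions turned to 0.75 and in share to 0.00407 percentage points; marker regions gained and lost in KO against WT were 2 and 2 untreated and 2 and 2 after LPS. Peaks of -log10 p of at least 20 left 4 marker regions lost in KO after LPS. Peaks covering 50% of a region gave 9 lost with LPS in KO and 1 gained in KO untreated. Leaving out 1 library at a time, the counts ranged as follows: with LPS in KO 7 to 12 gained and 5 to 8 lost; with LPS in WT 8 to 13 gained and 2 to 7 lost; in KO against WT untreated 0 to 2 gained and 7 to 15 lost, and after LPS 0 to 2 gained and 8 to 15 lost. The gained and lost rule is easier to meet with 1 library on a side, which by construction can only raise these counts. With a replicate block (exact sign-flip test, smallest p 0.125), the differences were 5.25 regions for LPS minus untreated (p = 0.25) and -13.75 for KO minus WT (p = 0.125), and no difference passed 0.05 with or without the block. The T marker difference was -9.75 to -3 regions over the other settings and kept its sign, with exact permutation p = 0.111 for its share under -log10 p of at least 20. Markers with a gene-end region numbered 11 within 0.5 kb and 19 within 2 kb. Of 37 single region comparisons, 22 changed with -log10 p of at least 20 and 17 with equal lists. Single marker regions near the calling threshold are therefore unsure, and a region not called is not shown to be closed. Only 2 libraries a group and unknown read depth limit every comparison.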
